A study of Mus musculus with 6 samples.

Results

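Lysosomal genes were described as a set of 40 transcripts, chosen by gene symbol from the 22173 symbols of the expression table: 10 peptidases (mainly cathepsins), 10 glycosidases, 7 lipid hydrolases and activator proteins, 4 membrane proteins, 7 subunits of the vacuolar ATPase, and the transcription factors Tfeb and Tfe3. All 40 passed the filter on low values, among 10681 genes tested. The samples were whole livers of wild-type mice that were 6 weeks old when the HFHC diet began. The diet lasted 16 weeks, and DDK, called a limonoid in the series title, or vehicle was given in the final 4 weeks, to 3 mice each. The series relates DDK to protection from metabolic dysfunction-associated steatohepatitis, and both groups were on the diet, so no lean control enters any comparison. The labels say nothing of sex, strain or cage.

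Lysosomes degrade material delivered by endocytosis, phagocytosis and autophagy. The vacuolar ATPase (V-ATPase) pumps protons into the lumen, and the luminal peptidases, glycosidases and lipid hydrolases work at the acid pH that this pump sets up. TFEB and TFE3, of the MiT family of basic helix-loop-helix leucine zipper factors, bind E-box letters in the promoters of many lysosomal genes, the so-called CLEAR network. In liver, lysosomes are found in hepatocytes and are abundant in Kupffer cells and other macrophages.

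The E-box core CACGTG and the extended form TCACGTGA were searched in RefSeq promoter windows of GRCm38.p6, from 250 bases before to 50 bases after each start. Both are palindromes, so a match lies on both strands, and the extended form contains the core. Windows were found for 34 of the 40 genes. They were not found for Ctsb, Ctsh, Asah1, Atp6v0d2, Atp6v1b2 and Atp6v1h. The extended form was present for 6 of 34 genes (17.6%), against 1.12% of 27025 genes in the table and 2.36% of the 8611 tested genes with a window. The core was present for 12 of 34 genes (35.3%), against 8.09% and 12.1%. The stretches that hold the extended form are shown because they carry the letters that MiT factors are known to bind. Capitals mark the matched letters, and sequences read 5′ to 3′ on the strand of the gene.
Ctsa, chr2:164833750-164833777, plus strand, first matched base at -13 relative to the start: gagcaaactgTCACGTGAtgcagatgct
Ctsa, chr2:164833767-164833794, plus strand, at 5: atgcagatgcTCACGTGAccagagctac
Ctsd, chr7:142387909-142387936, minus strand, at -99: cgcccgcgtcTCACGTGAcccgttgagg
Mcoln1, chr8:3500463-3500490, plus strand, at -46: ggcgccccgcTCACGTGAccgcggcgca
Atp6v0d1, chr8:105566051-105566078, minus strand, at -4: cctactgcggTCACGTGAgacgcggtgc
Atp6v1a, chr16:44139374-44139401, minus strand, at -132: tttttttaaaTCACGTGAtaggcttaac
Gla, chrX:134601216-134601243, minus strand, at -228: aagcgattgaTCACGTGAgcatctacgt
Gla, chrX:134601183-134601210, minus strand, at -195: gagatctcggTCACGTGAgcaactctcg
Lamp1 held 4 copies of the core and none of the extended form, in the 67 bases that end just before its start, chr8:13159094-13159160, plus strand: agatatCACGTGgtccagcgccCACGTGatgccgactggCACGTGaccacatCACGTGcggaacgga

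Expression was deposited as FPKM, a level corrected for both the length of the gene and the size of the library, so that levels of different genes can be compared. The recovered totals were 26576291 to 30237490 fragments in the DDK libraries and 33963898 to 36105315 in the vehicle libraries. Alb, the albumin gene of hepatocytes, had an FPKM of 33702 to 37838 in DDK and 17336 to 21423 in vehicle, so all 6 samples carried the hepatocyte marker at a high level. As deposited, the median gene stood 0.23 lower in DDK on the log2 scale (0.00 after median-ratio scaling, which sets the libraries to a common median ratio, and -0.44 after rescaling to TPM). The 20 most abundant genes took 26.1% to 26.7% of fragments in DDK and 17.1% to 21.5% in vehicle. Vehicle replicate 1 stood apart from the other vehicle libraries, with a library weight of 0.28 against 0.72 to 1.88 in the other 5.

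Most of the lysosomal genes were lower in DDK livers, and 1, the GM2 activator gene Gm2a, was higher. By limma on log2(FPKM + 1), with Benjamini-Hochberg adjustment over all genes tested and an adjusted p under 0.05 as the threshold, 28 of the 40 fell and 1 rose. The background was high, with 40.5% of all tested genes called in either direction, 30.3% lower and 10.2% higher in DDK. With 1 library left out it moved too, from 1711 of 10374 genes lower (without vehicle replicate 3) to 4127 of 10423 (without vehicle replicate 1). Each count below with a library left out therefore has its own background. The 3 DDK livers lay below all 3 vehicle livers for 31 of the 40 genes and above them for 2, Gm2a and Tfeb, against 39.2% and 14.1% of all tested genes. The median difference of the 40 genes was -0.58, or -0.35 relative to all genes (SD over the 3 DDK libraries 0.028). Differences on this scale understate the changes of genes with low FPKM, and the p-values measure the spread among these 6 livers only.

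The count of lower genes depended on how libraries were scaled. After median-ratio scaling 14 of the 40 genes were lower and 2 higher, at a background of 15.4% lower and 18.4% higher. After correction for gene length it was 19 and 2, at 16.1% and 17.8%, with Atp6v0d1 among the 19 on an unsure length. After rescaling to TPM it was 34 and 1, at 44.1% and 5.42%. Gm2a was higher in each of these, and the second higher gene was Tfeb after median-ratio scaling and after length correction. At the same threshold of 0.05, 13 genes were lower under each of 21 alternatives to the fit, which include the 6 libraries left out in turn: Ctsd, Ctss, Lgmn, Gusb, Hexa, Asah1, Lipa, Ppt1, Psap, Lamp1, Atp6v0c, Atp6v1a and Atp6v1b2. At a threshold of 0.01, Atp6v1a was not among the genes called.

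**Figure D1:**
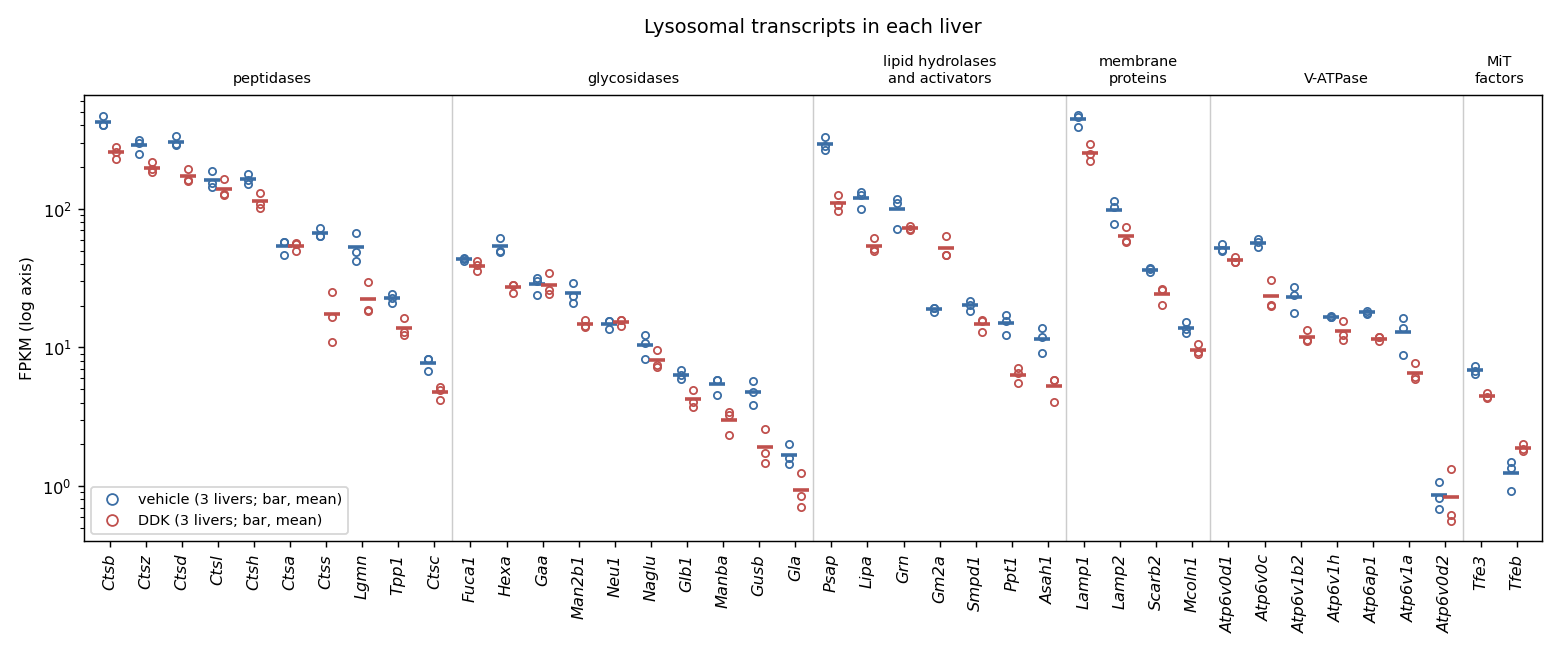
FPKM of the 40 lysosomal genes on a log axis, ordered within each role by mean level; open circles are single livers (blue vehicle, red DDK, 3 each) and bars are group means. Lamp1, Ctsb, Ctsd and Psap stand highest in vehicle livers, Atp6v0d2, Gla and Tfeb have the lowest means in both groups, and Gm2a is the gene whose red circles stand far above its blue ones.

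In bulk liver, fewer cells of a type and less RNA per cell cannot be told apart, and lysosomal genes are strongly expressed by macrophages. The summed FPKM of 20 macrophage and Kupffer cell genes was 200.06 to 502.28 in the DDK livers and 670.54 to 1090.81 in the vehicle livers. Of the 19 tested, 13 were lower (68.4%, against 30.3% of all tested genes) and 1 was higher. Among the 19, Itgax and Cx3cr1 passed the filter on low values through 1 group only, so a difference was built into these 2. Without vehicle replicate 1, 17 were tested and 10 were lower, and 10 to 14 were lower with each library left out in turn. Adgre1, which encodes the macrophage marker F4/80, was 2.94, 1.91 and 1.31 in DDK and 5.05, 8.37 and 17.1 in vehicle. Csf1r, the receptor for macrophage growth factor, was 12.6, 7.76 and 4.94 against 18.9, 16.3 and 28.2. Clec4f, a Kupffer cell lectin, was 43.6, 27.7 and 15.7 against 33.6, 29.2 and 41.3, and its groups overlapped (difference -0.35, adjusted p = 0.363 by limma). Vsig4, Marco, Timd4 and C1qa overlapped as well, with differences of -0.61, -0.32, -0.010 and -0.48 (adjusted p = 0.0992, 0.633, 0.980 and 0.251 by limma). With Clec4f they were the 5 tested genes of this list that were not called. None of the 20 genes was at 0 in all libraries. The 11 genes of lipid-associated macrophages had a summed FPKM of 125 to 164 in DDK and 273 to 349 in vehicle. Of these 9 were called lower, but 3 (Gpnmb, Mmp12 and Itgax) passed the filter on low values only through the vehicle livers, so a difference was built into them. Without vehicle replicate 1, 2 or 3 these 3 were not tested, and 5, 5 and 4 of the remaining 8 were lower. The part of these shifts in the lysosomal result was not tested.

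Peptidases fell in 8 of 10 cases (80%, against 30.3% of all tested genes). Ctss, cathepsin S, a protease of antigen-presenting cells that trims the invariant chain of MHC class II, had an FPKM of 25.1, 16.4 and 11.0 in DDK replicates 1 to 3 and 63.4, 63.1 and 73.2 in vehicle replicates 1 to 3. The highest DDK liver lay far under the lowest vehicle liver, and the mean fell 3.80-fold, from 66.6 ± 5.73 to 17.5 ± 7.10 (SD, n = 3). The difference was -1.94 ± 0.24 (SE, adjusted p = 0.000842 by limma), the lowest of the 40 genes. In GENCODE M21 on GRCm38, Ctss lies at chr3:95526786-95556403 on the plus strand. Lgmn, legumain, an asparaginyl endopeptidase that also processes cathepsins, was 29.8, 18.2 and 18.5 in DDK and 42.2, 48.4 and 67.1 in vehicle. Its groups did not overlap, with DDK replicate 1 and vehicle replicate 1 nearest to each other, and it fell by 1.22 ± 0.22 (adjusted p = 0.00338).

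Ctsd, cathepsin D, the main lysosomal aspartic protease, was 160, 162 and 195 in DDK and 287, 293 and 333 in vehicle. The libraries of each group were close, and Ctsd fell by 0.82 ± 0.14 (adjusted p = 0.00236). Ctsb, cathepsin B, a cysteine protease, was 259, 230 and 277 against 401, 402 and 468, without overlap. It fell by 0.73 ± 0.13 (adjusted p = 0.00362), and after median-ratio scaling its adjusted p was 0.0581. The other 4 peptidases called lower, Tpp1, Ctsc, Ctsh and Ctsz, fell by 0.53 to 0.68. Without DDK replicate 2 the calls of Ctsc, Ctsh and Ctsz were lost and 5 of the 10 peptidases were lower, without vehicle replicate 3 those of Ctsh and Ctsz, and without DDK replicate 1 that of Ctsh (adjusted p up to 0.0568, 0.0730 and 0.0634 for Ctsc, Ctsh and Ctsz). Cathepsin L, Ctsl, and the carboxypeptidase cathepsin A, Ctsa, did not pass, with overlapping groups and differences of -0.21 and 0.020. After median-ratio scaling, Ctss, Lgmn and Ctsd were the 3 peptidases still called lower. Ctsd shares 808 exonic bases with Gm49369 on its own strand and Ctsb 774 with Fdft1 on the opposite strand. Ctsa shares 495 with Pltp and 324 with Neurl2, both on the opposite strand. Ctsl shares 1742 with Gm47123 on the opposite strand and 395 with the pseudogene Gm49230 on its own. The library kit does not mark strand, so the division of fragments between these genes is uncertain.

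Glycosidases fell in 6 of 10 cases (60%, against 30.3% of all tested genes). Hexa, the alpha subunit of beta-hexosaminidase, which removes terminal hexosamines from gangliosides and glycans, was 28.4, 24.6 and 28.3 in DDK and 49.2, 49.8 and 61.8 in vehicle. The DDK livers lay close together and well under the vehicle livers, and Hexa fell by 0.95 ± 0.14 (adjusted p = 0.00145). Gusb, beta-glucuronidase, was 1.72, 1.46 and 2.59 against 3.84, 4.80 and 5.73, without overlap, and fell by 0.99 ± 0.19 (adjusted p = 0.00382). Man2b1, lysosomal alpha-mannosidase, was 14.3, 15.9 and 13.9 against 20.8, 23.7 and 29.3. Its groups were apart, and it fell by 0.69 ± 0.15 (adjusted p = 0.00680, and 0.0512 after median-ratio scaling). Manba, beta-mannosidase, was 3.40, 2.35 and 3.24 against 4.57, 5.86 and 5.85. It also did not overlap and fell by 0.69 ± 0.16 (adjusted p = 0.00977), but not without DDK replicate 2 (adjusted p = 0.0504).

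The other 2 glycosidases called lower were Glb1 (beta-galactosidase, -0.50) and Gla (alpha-galactosidase A, -0.48), and neither was called after median-ratio scaling. The call of Glb1 was also lost without DDK replicate 1 or 3 or vehicle replicate 2 (adjusted p up to 0.0790), and that of Gla without DDK replicate 1 or 2 or vehicle replicate 3 (up to 0.124). Naglu, Fuca1, Gaa and Neu1 did not pass, with differences of -0.32, -0.15, -0.015 and 0.031. Glb1, Ctsa and Neu1 encode the beta-galactosidase, the protective protein and the sialidase of 1 lysosomal enzyme complex, and were looked at together after their values were seen. Ctsa was 57.0, 56.0 and 49.5 in DDK and 57.4, 46.1 and 57.2 in vehicle, and Neu1 was 14.2, 15.8 and 15.7 against 15.4, 13.6 and 15.6. Both sets of livers overlapped, while Glb1 was 4.02, 4.90 and 3.73 against 6.31, 6.93 and 5.87. The ratio of Ctsa to Glb1 within a library was therefore 11.4 to 14.2 in DDK and 6.66 to 9.75 in vehicle. Glb1 shares 165 exonic bases with Tmppe on its own strand, and Ctsa shares bases with Pltp and Neurl2, so this ratio carries the uncertainty of divided fragments.

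Lipid hydrolases and activators had 5 of 7 genes lower (71.4%, against 30.3% of all tested genes) and held the single increase. Their median was -0.78 relative to all genes. Psap, prosaposin, the precursor of saposins A to D that present sphingolipids to their hydrolases, was 107, 96.0 and 126 in DDK and 267, 285 and 329 in vehicle. The highest DDK liver had less than the lowest vehicle liver by a wide margin, and the mean was 2.67-fold lower, at 110 ± 15.3 against 294 ± 31.9 (SD, n = 3). Psap fell by 1.41 ± 0.15 (adjusted p = 0.000508). Gm2a, the activator that lifts GM2 ganglioside out of the membrane for beta-hexosaminidase, was 46.4, 46.7 and 64.0 in DDK and 19.2, 19.2 and 18.1 in vehicle. The vehicle livers were almost level, every DDK liver stood above them, and the mean rose 2.78-fold, from 18.9 ± 0.615 to 52.4 ± 10.1. The difference was 1.41 ± 0.15 (adjusted p = 0.000533), and the gene was called higher at a threshold of 0.05 under each of the 21 alternatives (adjusted p up to 0.0111). Psap lies at chr10:60277627-60302597 and Gm2a at chr11:55098115-55113029, both on the plus strand.

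Lipa, lysosomal acid lipase, which frees cholesterol and fatty acids from internalised lipoprotein lipid, was 51.0, 49.3 and 61.4 in DDK and 98.9, 127 and 132 in vehicle. The groups were far apart, with vehicle replicate 1 the lowest of its group, and Lipa fell by 1.13 ± 0.15 (adjusted p = 0.00117). Ppt1, palmitoyl-protein thioesterase, was 7.06, 5.54 and 6.50 against 12.3, 17.2 and 15.4. It did not overlap either and fell by 1.11 ± 0.16 (adjusted p = 0.00145). Asah1, acid ceramidase, was 5.82, 4.07 and 5.85 against 9.10, 13.7 and 11.9, without overlap, and fell (adjusted p = 0.00350). Smpd1, acid sphingomyelinase, fell by 0.43, and was not called after median-ratio scaling (adjusted p = 0.418) or without any 1 of DDK replicates 1 and 2 and vehicle replicates 2 and 3 (up to 0.133). Grn, progranulin, did not pass (-0.42, adjusted p = 0.0877): vehicle replicate 2, at 71.0, lay among the DDK livers (69.9 to 75.6), and without it the adjusted p was 0.0111.

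Because Gm2a works with beta-hexosaminidase, and saposins and the GM2 activator are the same kind of cofactor, their ratios were taken within each library, a choice made after the values were seen. Gm2a to Psap was 0.433, 0.486 and 0.507 in DDK and 0.0719, 0.0675 and 0.0552 in vehicle, a 7.33-fold higher mean. Gm2a to Hexa was 1.64, 1.89 and 2.26 against 0.391, 0.386 and 0.293, so Hexa exceeded Gm2a in every vehicle liver and Gm2a exceeded Hexa in every DDK liver. A ratio within a library does not change with the scaling of that library. Hexa shares 255 exonic bases with Tmem202 on the opposite strand, so the ratio of Gm2a to Hexa carries the uncertainty of divided fragments.

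**Figure D2:**
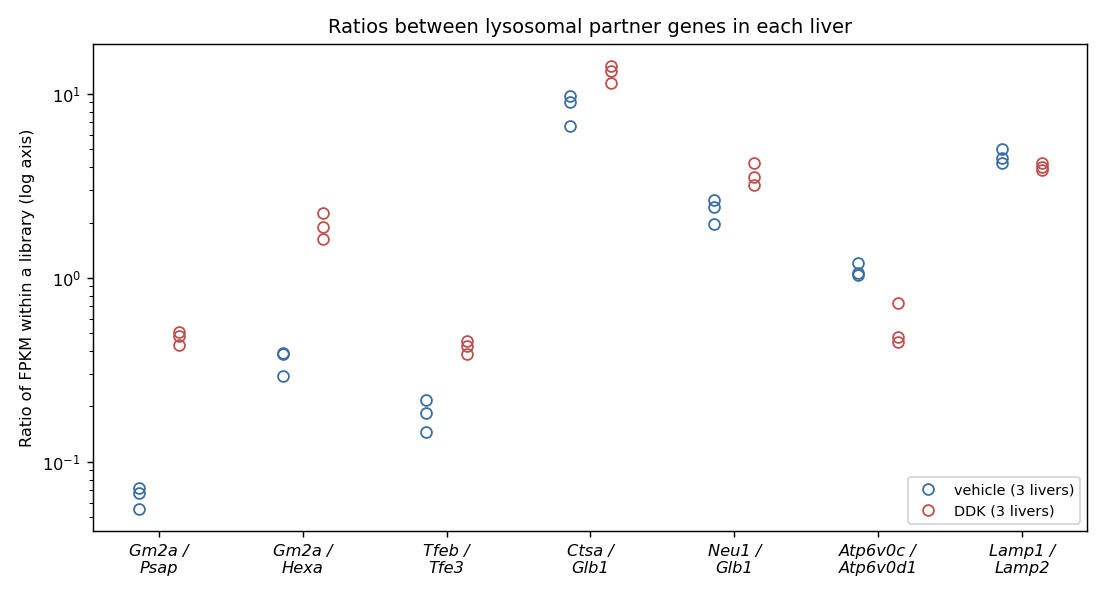
Ratio of FPKM of 7 gene pairs within each library, on a log axis; each circle is 1 liver (blue vehicle, red DDK). The circles of Gm2a to Psap are the farthest apart, those of Tfeb to Tfe3 and of Atp6v0c to Atp6v0d1 are apart in opposite directions, and those of Lamp1 to Lamp2 overlap.

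All 4 membrane protein genes fell, against 30.3% of all tested genes. Lamp1, a heavily glycosylated protein that lines the inner face of the lysosomal membrane, was 247, 220 and 295 in DDK and 391, 476 and 457 in vehicle. The groups were apart, and Lamp1 fell by 0.80 ± 0.15 (adjusted p = 0.00386). Lamp2, its relative that also serves chaperone-mediated autophagy, was 58.6, 57.3 and 74.0 against 78.1, 114 and 102. DDK replicate 3 and vehicle replicate 1 nearly met, and Lamp2 fell by 0.61 ± 0.17 (adjusted p = 0.0175). The ratio of Lamp1 to Lamp2 was 3.84 to 4.21 in DDK and 4.19 to 5.01 in vehicle, which overlap.

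Scarb2, also called LIMP-2, the receptor that carries glucocerebrosidase to lysosomes, was 26.0, 20.2 and 26.5 in DDK and 35.0, 36.6 and 37.5 in vehicle. The vehicle livers were nearly level and all above DDK, and Scarb2 fell by 0.58 ± 0.14 (adjusted p = 0.0104). Mcoln1, the calcium channel mucolipin of the lysosomal membrane, was 10.6, 8.98 and 9.33 against 15.3, 12.7 and 13.5. It did not overlap and fell by 0.48 ± 0.13 (adjusted p = 0.0194). After median-ratio scaling only Lamp1 of the 4 was called (adjusted p = 0.0419, against 0.146 to 0.332 in the others). Leaving out DDK replicate 2 ended the calls of Lamp2, Scarb2 and Mcoln1, vehicle replicate 3 those of Lamp2 and Mcoln1, and DDK replicate 1 or vehicle replicate 2 that of Lamp2, with adjusted p up to 0.0758, 0.0509 and 0.0834 for Lamp2, Scarb2 and Mcoln1.

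V-ATPase subunits were split, with 4 of 7 lower (57.1%, against 30.3% of all tested genes). Atp6v0c, the proteolipid that forms the proton-carrying ring, was 20.2, 19.8 and 30.4 in DDK and 57.4, 53.1 and 60.4 in vehicle. The gap between the groups was wide, and it fell by 1.27 ± 0.17 (adjusted p = 0.00116). The mouse genome also holds processed copies of Atp6v0c, so how fragments were divided between them is uncertain. Atp6v1b2 and Atp6v1a encode the B and A subunits of the catalytic head that hydrolyses ATP. Atp6v1b2 was 11.2, 13.3 and 11.2 against 17.8, 24.1 and 27.2, and fell by 0.88 ± 0.17 (adjusted p = 0.00401). Atp6v1a was 5.93, 6.11 and 7.70 against 8.81, 13.8 and 16.4, and fell by 0.85 ± 0.21 (adjusted p = 0.0114). In both, vehicle replicate 1 was the lowest vehicle liver and still stood above every DDK liver.

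Atp6ap1, an accessory subunit, was 11.9, 11.1 and 11.8 in DDK and 18.4, 17.8 and 17.4 in vehicle. Replicates were tight, and it fell by 0.59 ± 0.12 (adjusted p = 0.00540), though not after median-ratio scaling (adjusted p = 0.107). Atp6v0d1, the d subunit that links stalk and ring in most tissues, was 45.0, 41.5 and 41.5 against 55.6, 49.7 and 50.3. Its groups were apart but close, and it did not pass (-0.28, adjusted p = 0.0851). It was at 0.029 after median-ratio scaling. Its length correction is unsure, because the length recovered for it, 550 bases, may be a whole fraction of the length that was used: its longest GENCODE M21 transcript has 1629 bases, close to 3 times as many. Atp6v0d2, the isoform of osteoclasts and some macrophages, was 0.615, 1.32 and 0.561 against 0.681, 0.820 and 1.08, with overlap (-0.039, adjusted p = 0.868). Atp6v1h, a regulatory subunit, was at -0.34 (adjusted p = 0.0781). The ratio of Atp6v0c to Atp6v0d1 was 0.449 to 0.732 in DDK and 1.03 to 1.20 in vehicle. The level of this ratio depends on the gene lengths behind the FPKM, which are the same in all libraries, while its difference between the groups does not.

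**Figure D3:**
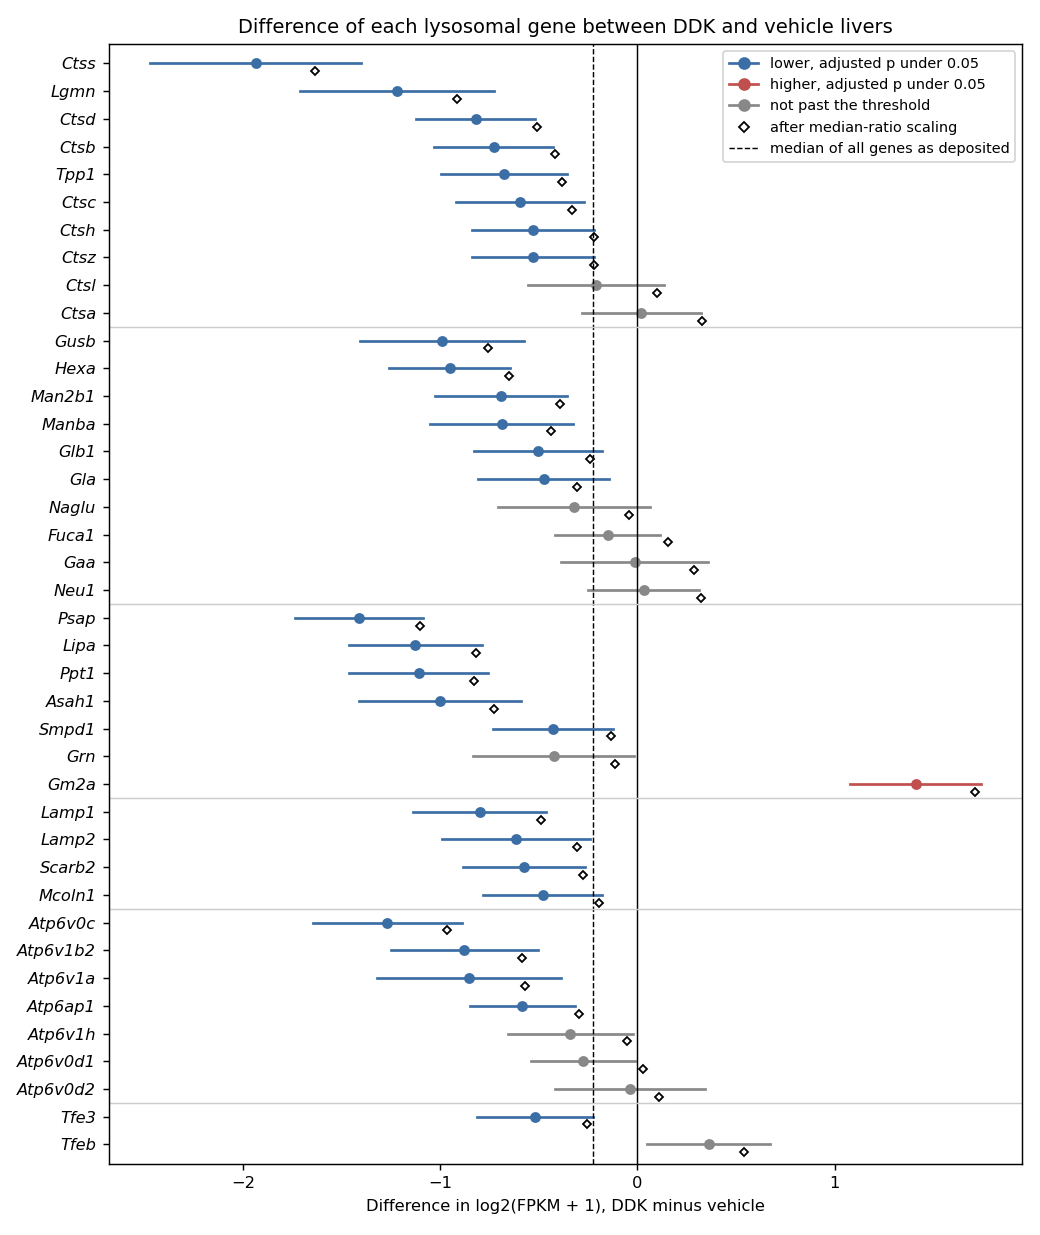
Difference in log2(FPKM + 1), DDK minus vehicle, for the 40 genes by role (peptidases, glycosidases, lipid hydrolases and activators, membrane proteins, V-ATPase, MiT factors, from top to bottom); circles with lines are the deposited scaling with its 95% interval, diamonds the value after median-ratio scaling. Differences run from -1.94 for Ctss to 1.41 for Gm2a, the dashed line marks the median of all genes at -0.23, and the diamonds sit to the right of the circles.

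The MiT factors parted. Tfe3 was 4.41, 4.66 and 4.31 in DDK and 6.80, 6.39 and 7.31 in vehicle. The groups were apart, and Tfe3 fell by 0.52 ± 0.13 (adjusted p = 0.0127), but not after median-ratio scaling (0.143) or without DDK replicate 1 or vehicle replicate 3 (up to 0.0519). Tfeb was 1.99, 1.79 and 1.84 against 1.48, 0.927 and 1.34. Every DDK liver stood above every vehicle liver, yet the difference of 0.36 ± 0.14 did not pass as deposited (adjusted p = 0.0635), and it did after median-ratio scaling (0.54, adjusted p = 0.0141). The ratio of Tfeb to Tfe3, a pair set together after the values were seen, was 0.452, 0.384 and 0.426 in DDK and 0.217, 0.145 and 0.184 in vehicle, 2.31-fold higher in the mean. These are transcript levels, and the activity of both factors is set largely by phosphorylation and entry into the nucleus, which were not measured here.

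The 20 other genes of MiT control hold the mTORC1 subunits, the Rag GTPases and the Ragulator complex, which tether mTORC1 to the lysosomal surface where it phosphorylates TFEB. Of 17 tested, 5 were lower (29.4%) and 2 higher, near the shares of all genes, and the 5 became 2 to 3 without DDK replicate 2 or vehicle replicate 2 or 3. Rraga, which encodes the GTPase RagA, was 5.35, 5.81 and 8.02 in DDK and 18.1, 29.3 and 24.5 in vehicle, 3.75-fold lower in the mean, and fell by 1.75 ± 0.20 (adjusted p = 0.000662). Rragc, which encodes its partner RagC, fell by 0.78 (adjusted p = 0.00308). Rragd is among the 5, but it passed the filter on low values only through the vehicle livers, so its difference is not used. The Ragulator genes Lamtor4 and Lamtor2 rose by 0.85 and 0.61 (adjusted p = 0.00353 and 0.0147). Lamtor1, Lamtor3 and Lamtor5 of the same complex were not called, at -0.13, -0.36 and 0.46 (adjusted p = 0.368, 0.103 and 0.0548 by limma). After length correction Lamtor2 was at 0.29 and not called (adjusted p = 0.0852 by limma). The call of Lamtor2 was lost without DDK replicate 1 or 2 or vehicle replicate 2 or 3 (adjusted p up to 0.0678), while Rraga, Rragc and Lamtor4 were called with each library left out in turn.

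The promoter letters were set beside these differences. Of the 12 genes with the core CACGTG in the window 7 were lower and 0 higher, with a median difference of -0.48, and of the 22 with a window without it 17 were lower and 1 higher, with a median of -0.61. The 6 genes with the extended form ranged from Ctsa, at 0.020, to Atp6v1a, at -0.85, and 4 of the 6 were lower. Among all 1042 tested genes with the core, 30.0% were lower and 9.69% higher, against 30.3% and 10.2% of all tested genes. Among all 203 tested genes with the extended form, 29.1% were lower and 9.36% higher. Psap, Gm2a, Lipa and Ctss had none of these letters in the windows searched.

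Lysosomal genes outside the 40 were counted in the same fit. Of 31 other luminal hydrolases and their helpers tested, 17 were lower (54.8%, against 30.3% of all tested genes) and 0 higher. Their median was -0.31 relative to all genes. Ctse, an intracellular aspartic protease, was under 0.1 in each DDK liver and 1.25 to 1.85 in vehicle. It and Ctsk are among the 17, but both passed the filter only through the vehicle livers, so a difference was built into these 2. Without vehicle replicate 2 the 17 became 11, in part because Ctse and Ctsk were then not tested. Arsa, the sulfatase that degrades sulfatide, was 14.0, 12.9 and 15.3 in DDK and 32.8, 33.7 and 43.1 in vehicle, and fell by 1.31 ± 0.14 (adjusted p = 0.000612). Npc2, which hands cholesterol out of the lumen, was 18.2, 14.4 and 14.7 against 32.6, 33.8 and 38.2, and fell by 1.10 ± 0.14 (adjusted p = 0.000887). Neither Arsa nor Npc2 overlapped between the groups.

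Of 20 other membrane and transport genes 8 were lower (40%, against 30.3% of all tested genes) and 0 higher. Their median was -0.092 relative to all genes, and 4 to 5 were lower without DDK replicate 1 or 2 or vehicle replicate 2 or 3. After median-ratio scaling 3 were lower (15%, against 15.4% of all genes) and 2 higher, at a background of 18.4%. Mfsd8, a lysosomal membrane transporter, fell by 0.64 (adjusted p = 0.00516), and Laptm5, a lysosomal protein of haematopoietic cells, fell by 1.09 (adjusted p = 0.00793). Of 13 other V-ATPase subunits 2 fell (15.4%, under the 30.3% of all tested genes) and 1 rose. Their median was -0.039 relative to all genes. The 3 called were Atp6v1c1 (-0.52), Atp6ap2 (-0.50) and Atp6v1g1 (0.37), and each call was lost when 1 of several libraries was left out (adjusted p up to 0.0776, 0.174 and 0.160). After median-ratio scaling 0 were lower and 3 higher, at a background of 15.4% and 18.4%. These 3 were Atp6v1g1 (0.67), Tcirg1 (0.75) and Atp6v1f (0.84), with adjusted p = 0.0160, 0.0186 and 0.0291 by limma. As deposited, 4 of the 7 V-ATPase subunits chosen for the set were lower, and 2 of the 13 others.

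The 40 genes were also set against the macrophage and Kupffer cell genes of the same liver. The mean of log2(FPKM + 1) over those 20 genes was 3.33, 2.99 and 2.41 in DDK and 3.72, 3.66 and 4.26 in vehicle, a difference of -0.97, and it was subtracted from each lysosomal gene. Of the 40 genes, 8 fell by more than this mean and 32 (80.0%) by less or not at all, against 94.0% of all tested genes. After the subtraction 30 of the 40 genes overlapped between the groups, 9 stood higher in DDK without overlap, at a background of 53.1% of all tested genes, and 1, Ctss, stood lower (1.38, 1.13 and 1.17 against 2.29, 2.34 and 1.95), at a background of 0.562%. Because most genes stand higher in DDK once this mean is taken off, the count of 9 is no excess among the lysosomal genes. As a share of the 40 it lies well under that background of 53.1%, and the reason was not tested. The 9 were Gm2a, Tfeb, Neu1, Ctsa, Gaa, Atp6v0d2, Fuca1, Ctsl and Atp6v0d1. Psap, Lipa, Lgmn and Atp6v0c, the largest decreases after Ctss, overlapped once the mean was subtracted. These values are a description over 3 livers a group without a test.

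**Figure D4:**
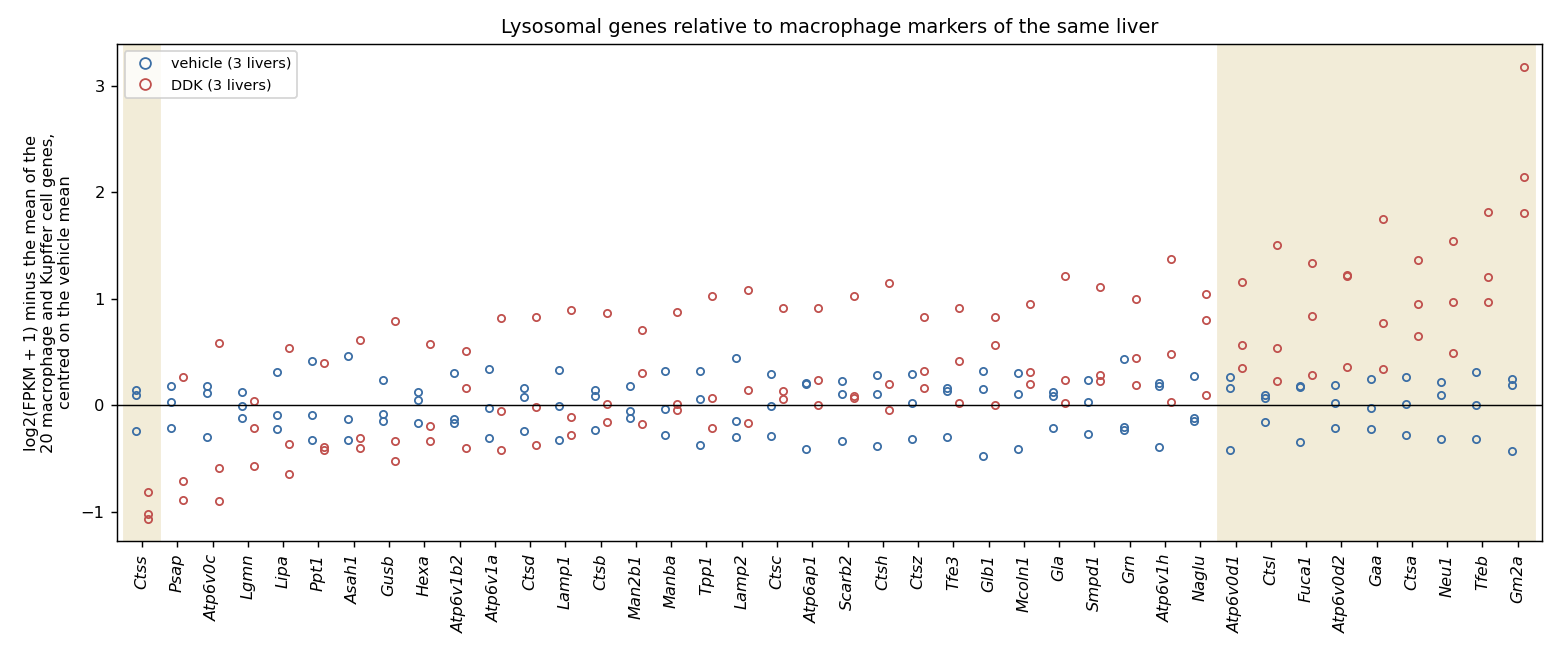
Level of each lysosomal gene minus the mean of the 20 macrophage and Kupffer cell genes in the same liver, on the log2(FPKM + 1) scale and centred on the vehicle mean of each gene; circles are single livers (blue vehicle, red DDK), and shading marks genes whose groups do not overlap. Ctss lies at the lower end, 9 genes from Atp6v0d1 to Gm2a lie at the upper end, and the top red circle of most genes is DDK replicate 3, where the macrophage mean was lowest (2.41).

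Markers of other cell types were counted beside these values, where 30.3% of all tested genes were lower and 10.2% higher. Of 10 stellate cell and fibroblast genes 7 were lower (70%) and 0 higher, and their summed FPKM was 62.5 to 86.1 in DDK and 139 to 181 in vehicle. Of 8 endothelial genes 4 were lower (50%) and 0 higher (55.5 to 73.4 against 76.9 to 117). Of 14 hepatocyte genes 4 were lower (28.6%, near the share of all genes) and 3 higher, Alb among the latter (difference 0.88, adjusted p = 0.00892). Of 5 cholangiocyte genes 0 were lower and 1 higher, of 3 tested neutrophil genes 1 was lower, and of 4 tested genes of T, NK and B cells 0 were called by limma (0 at an unadjusted p under 0.05, and 0 by voom). After median-ratio scaling 7 stellate cell and fibroblast genes, 3 endothelial genes and 1 hepatocyte gene were lower, at a background of 15.4%. On that scaling 4 hepatocyte genes were higher, at a background of 18.4%. The part of these cell types in the lysosomal result was not tested.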

How the data were processed

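Whole-liver RNA-seq of 6 mice was used, 3 given DDK and 3 given vehicle, grouped by the treatment label. The values were the authors' deposited FPKM. Per the submitters' processing notes the build was GRCm38 (mm10), while aligner, counting program and annotation are not given in the sources used here. Per the labels' protocols libraries came from the NEBNext Ultra RNA kit, whose reads carry no strand information. Whole fragments behind the FPKM were recovered for 100.0% of the 16573 genes above 0, within 0.01 of a fragment, and 5600 symbols were listed at 0. The recovered lengths are the smallest that give whole fragments, so a length and its fragments can be a whole fraction of the true ones, as may hold for Atp6v0d1 and Lamp1; the deposited values are not touched by this.

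The 2 groups were compared on log2(FPKM + 1) with limma (version 3.58.1, R 4.3.3; trended prior variance) over every gene that reached an FPKM of 0.5 in 3 or more libraries, and p-values were adjusted over all of these by Benjamini-Hochberg. Intervals are 95%. The script was tested on simulated data. Fully described are the 4 genes with the smallest p in each role, Atp6v0d1, Atp6v0d2 and each gene called higher; from other lists, up to 3 genes per direction, and the markers Adgre1, Clec4f, Csf1r and Alb. Not every gene that this rule takes is reported here. Other genes named were chosen after their values were seen. The members and lists were chosen with earlier results of these data known. Exon overlaps are those of GENCODE M21. Besides those given above, bases are shared on the opposite strand by Lamp1 (249 with Grtp1), Ppt1 (129 with Cap1) and Atp6v1h (127 with Rgs20). The same holds for Grn (68 with Fam171a2) and Ctsz (10 with Nelfcd), and the division of fragments is uncertain for these as well. Alternatives were pseudocounts, filters, scalings, length correction, library weights, a replicate block, variance settings, thresholds, voom on recovered fragments and each library left out. Added after seeing the data was a length correction in which 179 recovered lengths were replaced by the whole multiple, up to 6, that lay within 2% of the longest GENCODE M21 transcript.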

Additional observations from a re-analysis of the deposited data

How the results depend on the processing

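The 28 lower and 1 higher lysosomal genes became 14 and 2 after median-ratio scaling, and 17 were lower at a threshold of 0.01. With the length correction that uses annotated multiples, chosen after seeing the data, 18 were lower and 2 higher. There were 2 higher genes after quantile normalization, without the 20 most abundant genes, with library weights, after length correction, with voom on recovered fragments and at a threshold of 0.1. With each library left out in turn, 19 to 29 genes were lower and 1 to 2 higher, the fewest lower without DDK replicate 2. Over all tested genes the number lower also shrank there, from 3234 of 10681 to 1746 of 10589. The median relative to all genes, -0.35, was -0.32 with a pseudocount of 0.1, -0.50 without a filter, -0.30 after median-ratio scaling, -0.41 after quantile normalization, -0.39 under TPM, -0.32 without the 20 most abundant genes, -0.32 with voom, and -0.39 to -0.32 with each library left out. Genes that changed direction were not called in either direction under those settings. Under TPM Ctsa was -0.21 and Neu1 -0.20. After median-ratio scaling Ctsl was 0.10, Gaa 0.29, Fuca1 0.15, Atp6v0d1 0.029 and Atp6v0d2 0.11. After length correction Ctsl was 0.11, Gaa 0.30, Fuca1 0.10 and Atp6v0d2 0.28, and with annotated multiples 0.10, 0.30, 0.091 and 0.28; Atp6v0d1, called lower at -0.75 by the first, was at -0.16 (adjusted p = 0.237 by limma) with its multiple. After quantile normalization Gaa was 0.15 and Atp6v0d2 0.18, and without the 20 most abundant genes Gaa was 0.12 and Atp6v0d2 0.026. With libraries left out, Ctsa ran from -0.083 to 0.082, Gaa from -0.16 to 0.083, Neu1 from -0.028 to 0.078 and Atp6v0d2 from -0.22 to 0.064. The cause was not tested. The replicate block gave 28 lower and 1 higher. Same-numbered livers had correlations of 0.14, -0.15 and 0.06, and not every liver correlated best with its own number. A pairing by number was therefore not shown, and so few livers cannot exclude one. With 3 livers a group, and 57 to 206 fragments for Gla and 69 to 149 for Atp6v0d2, small differences of low genes were not detectable at this depth.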

Other observations

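Of 9 genes of enzyme sorting, which deliver hydrolases to lysosomes, 5 were lower (55.6%, against 30.3% of all tested genes) and 0 higher by limma, with a median of -0.23 relative to all genes. After median-ratio scaling 1 of the 9 was lower (11.1%), under the background of 15.4%, and 1 to 2 were lower without DDK replicate 1 or 2 or vehicle replicate 2 or 3. Gga2, an adaptor that sorts mannose 6-phosphate receptors at the Golgi, was 1.56, 2.24 and 2.47 in DDK livers and 4.07, 4.83 and 4.47 in vehicle livers, without overlap, and fell by 0.83 ± 0.16 (adjusted p = 0.00395). Gnptab, a subunit of the transferase that starts the mannose 6-phosphate tag, fell by 0.53 (adjusted p = 0.0199), and Nagpa, which uncovers the tag, fell by 0.51 (adjusted p = 0.0357). Gga2 was the gene called lower after median-ratio scaling (adjusted p = 0.0147), and the calls of Gnptab and Nagpa were lost with 1 of several libraries left out (adjusted p up to 0.0769 and 0.134).

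Of 21 autophagy genes tested 6 were lower (28.6%) and 0 higher, near the 30.3% of all tested genes, with a median of -0.071 relative to all genes. The 6 became 3 without DDK replicate 2 or vehicle replicate 3 and 12 without vehicle replicate 1. All tested genes called lower moved the same way, to 1746 of 10589, 1711 of 10374 and 4127 of 10423 in these 3 fits. Gabarapl1, of the family of ubiquitin-like proteins that coat autophagosomes, had an FPKM of 193, 197 and 247 in DDK and 381, 341 and 487 in vehicle, and fell by 0.92 ± 0.17 (adjusted p = 0.00349). Its relative Gabarapl2 fell by 0.72 and Atg7, the enzyme that activates that family, by 0.73 (adjusted p = 0.00486 and 0.00686). All 3 had groups that did not overlap, and all 3 were also lower after median-ratio scaling, where 3 of the 21 genes were called (14.3%, against 15.4% of all genes).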
